A study of Mus musculus with 28 samples.

Results

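The nuclear lamina genes followed here were Lmna, Lmnb1, Lmnb2, Lbr, Emd, Tmpo, Sun1 and Sun2. The rule chose genes by name, and all 8 were found among the 55450 genes of the deposited expression table, measured in all 12 RNA-seq libraries. Cells of the C10 mouse Pre-B line, which is HAFTL derived and carries the CEBPalpha-ER transgene at every time point, were sampled without induction (0h) and at 1h, 12h and 48h of induction, with 3 biological replicates each. The transgene is rat C/EBPα joined to the hormone-binding domain of the estrogen receptor, so that β-estradiol sends it into the nucleus. Induction combined 100 nM β-estradiol with 10 nM IL-3 and with CSF-1, so the parts of the transgene and of the cytokines cannot be told apart. C10 is a single line, the induced cultures still held unconverted cells at 48h, and in bulk RNA fewer cells of a type and less RNA per cell cannot be told apart. Promoter Capture Hi-C, which lists the restriction fragments that contact gene promoters, was available as 1 merged list per time point.

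The lamina is a mesh of intermediate filament proteins under the inner nuclear membrane that carries the shape of the nucleus and anchors silent chromatin at its rim. Its filaments are the A-type lamins, all spliced from Lmna, and the B-type lamins of Lmnb1 and Lmnb2. Lbr (lamin B receptor), Emd (emerin) and Tmpo (LAP2) are membrane or nucleoplasmic partners that tie lamins to chromatin, and Sun1 and Sun2 cross the inner membrane and couple the lamina to the cytoskeleton through KASH proteins. In blood cells the make-up of the lamina is known to vary between lineages, and nuclear shape varies with it.

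The labelled cell type matched its markers. The 8 Pre-B cell markers summed to between 252 and 273 TPM (transcripts per unit of a library's transcripts, a level set per transcript length) at 0h and to between 25.7 and 37.2 at 48h. The 6 macrophage markers summed to between 1.58 and 2.07 TPM at 0h and to between 175 and 247 at 48h. Fibroblast markers were at 0 in every library, and T cell and erythroid markers never summed to more than 0.18 TPM. TPM hold no record of depth, so the counting error of a single value is unknown. The most abundant pair of genes took between 70.3% and 82.9% of each library's TPM, and over all 16415 genes tested the median log2 fold change against 0h was 0.59, 0.34 and -0.18 for 1h, 12h and 48h, and -0.62 for 48h against 12h. Changes are therefore given in TPM and, beside them, after median-of-ratios scaling between libraries, which brought these medians to 0.02, 0.07, 0.07 and -0.01. The replicate 3 libraries stood together across time points: the deviations of their genes from the time point means correlated at between 0.0698 and 0.257 among themselves, and negatively in all 24 pairs with replicates 1 and 2 of other time points. Deviations cancel out over the replicates of a time point, so the negative values follow in part from the positive ones. A gene is called changed where limma's adjusted p (Benjamini-Hochberg, over all genes tested) was under 0.05.

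In uninduced Pre-B cells Lmnb1 was by far the most abundant lamin transcript. At 0h Lbr had 26.2 ± 2.27 TPM (SD, n = 3), Lmnb1 26.0 ± 1.90 TPM and Tmpo 25.2 ± 4.13 TPM, and the libraries of these neighbours in the order overlapped. Emd followed at 6.51 ± 1.03 TPM and Sun2 at 4.41 ± 0.266 TPM, each without overlap with its neighbours. Lmnb2 (2.66 ± 0.324 TPM), Sun1 (2.60 ± 0.552 TPM) and Lmna (2.24 ± 0.134 TPM) were lowest, and their ranges overlapped from one to the next. Over time the order shifted. At 48h Lbr was alone at the top with 23.3 ± 3.29 TPM, Emd, Sun2, Sun1, Lmna and Tmpo came next with each overlapping its neighbour, and Lmnb1 and Lmnb2 were last at 0.260 ± 0.148 and 0.203 ± 0.0874 TPM.

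**Figure D1:**
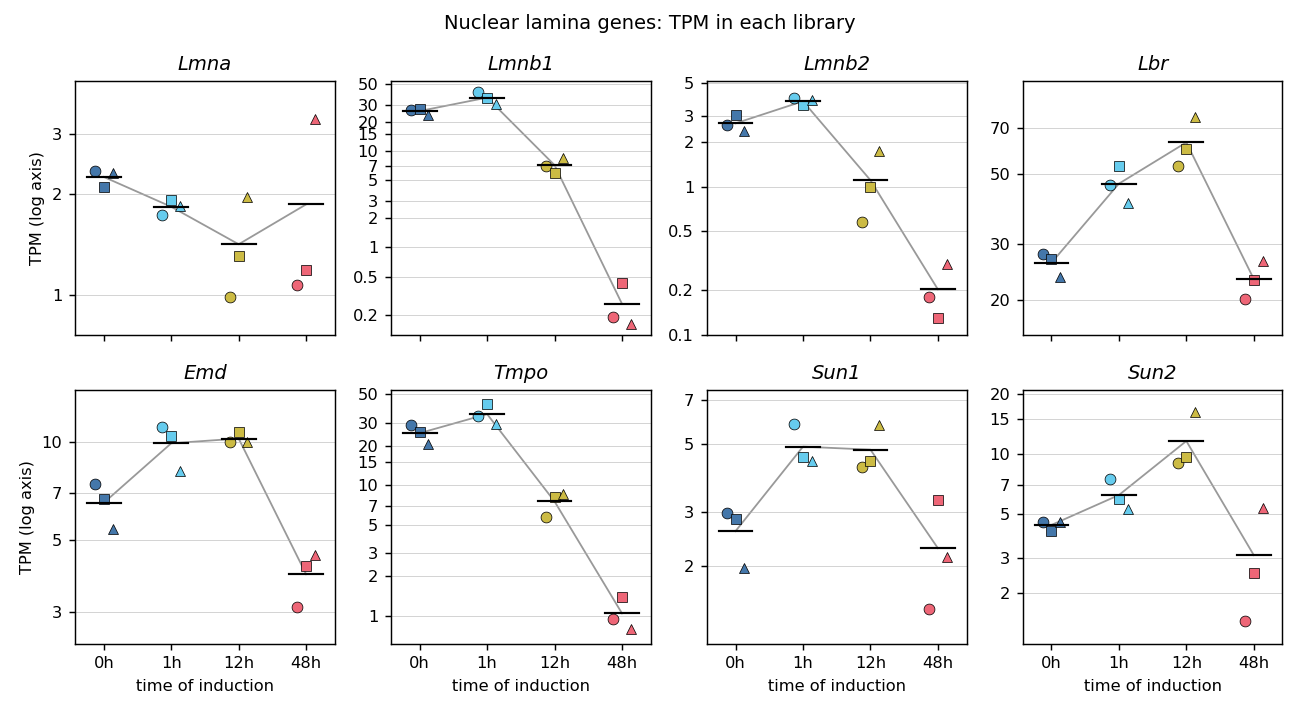
TPM of the 8 nuclear lamina genes in each of the 12 libraries, on log axes that differ between panels. Circles, squares and triangles are replicates 1, 2 and 3, black bars are means of 3 libraries and the grey line joins them. Lmnb1, Tmpo and Lmnb2 drop below every 0h library by 12h and further by 48h, Lbr peaks at 12h, and the 48h libraries of Lmna and Sun2 are spread by 1 high library.

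Lmnb1, which encodes lamin B1 (chr18:56707813-56753424, plus strand, GRCm38), showed the largest decrease of the 8 genes. It measured 26.8, 27.4 and 23.9 TPM in the 3 libraries at 0h, 41.0, 35.8 and 30.8 at 1h, 6.97, 5.91 and 8.56 at 12h, and 0.19, 0.43 and 0.16 at 48h. All 1h libraries were above all 0h libraries, and both later time points lay wholly below them. Its mean at 48h was 100.1-fold lower than at 0h. On the log2(TPM + 0.1) scale, which understates changes that end near 0, Lmnb1 fell by 1.86 at 12h (SE 0.26, adjusted p = 0.000261) and fell by 6.25 at 48h (SE 0.26, adjusted p = 1.04e-08). After scaling the differences were -2.20 and -5.98, and at 1h the value of 0.45 in TPM became -0.21, with neither called.

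Tmpo, which encodes the LAP2 proteins that bind lamins and the chromatin protein BAF (chr10:91147571-91181315, minus strand), ran alongside Lmnb1. It measured 28.9, 25.9 and 20.8 TPM at 0h, 34.3, 41.8 and 29.7 at 1h, 5.76, 8.21 and 8.61 at 12h, and 0.95, 1.38 and 0.79 at 48h. The 12h and 48h libraries did not overlap those of 0h. Tmpo fell by 1.74 on the log2 scale at 12h (SE 0.24, adjusted p = 0.000251) and fell by 4.49 at 48h (SE 0.24, adjusted p = 6.22e-08), a 24.2-fold lower mean TPM, and after scaling the differences were -2.07 and -4.12. The values are sums over isoforms, so the LAP2 forms with and without a membrane anchor cannot be told apart.

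Lmnb2, the gene of lamin B2 (chr10:80901203-80918245, minus strand), fell from a lower level. It measured 2.60, 3.01 and 2.37 TPM at 0h, 3.94, 3.51 and 3.79 at 1h, 0.58, 0.99 and 1.74 at 12h, and 0.18, 0.13 and 0.30 at 48h. Replicate 3 was highest of the 12h libraries, yet all of them were below 0h. Lmnb2 fell by 1.31 at 12h (SE 0.34, adjusted p = 0.0128) and fell by 3.22 at 48h (SE 0.34, adjusted p = 1.28e-05), or -1.62 and -2.96 after scaling. At 48h its mean TPM was 13.1-fold lower than at 0h. The 12h call was lost when only the 6 libraries compared were fitted (adjusted p = 0.0634).

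The decrease of these genes went together with that of proliferation genes. The 10 proliferation genes summed to between 183 and 218 TPM at 0h, between 265 and 308 at 1h, between 64.1 and 80.7 at 12h and between 7.74 and 9.04 at 48h, and all 10 were called lower at 48h, among them the mitotic kinase gene Cdk1 (log2 fold change -6.98), the cyclin gene Ccnb1 (-6.63) and Rrm2 (-6.38), a subunit of ribonucleotide reductase. In TPM 27.2% of all genes tested were called lower at 48h. The part of the proliferation genes in the lamina result was not tested.

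Promoter sequences are shown for Tmpo and Lmnb2, which fell, and for Lbr, which rose at 12h, because genes that move together or apart can be compared by the motifs at their starts. They were taken from RefSeq (GRCm38.p6), where 7 of the 8 genes had an entry and Lmnb1 had none. Each run covers the 220 bases before an annotated start, 5′ to 3′ on the gene's strand, and lies in no annotated exon. Capitals mark letters of the motifs searched on both strands from 250 bases before to 50 bases after the start.

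Tmpo, upstream start, chr10:91171620-91171839, minus strand: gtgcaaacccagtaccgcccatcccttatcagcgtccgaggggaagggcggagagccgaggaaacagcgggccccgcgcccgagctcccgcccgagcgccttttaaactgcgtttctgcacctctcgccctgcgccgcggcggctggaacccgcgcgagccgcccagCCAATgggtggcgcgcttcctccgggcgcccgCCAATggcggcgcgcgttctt

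Tmpo, downstream start, chr10:91170551-91170770, minus strand: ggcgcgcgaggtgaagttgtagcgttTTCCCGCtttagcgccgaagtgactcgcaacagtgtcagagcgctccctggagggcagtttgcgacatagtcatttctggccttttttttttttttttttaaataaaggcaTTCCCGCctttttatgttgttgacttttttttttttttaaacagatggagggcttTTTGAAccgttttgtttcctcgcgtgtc

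Lmnb2, chr10:80918246-80918465, minus strand: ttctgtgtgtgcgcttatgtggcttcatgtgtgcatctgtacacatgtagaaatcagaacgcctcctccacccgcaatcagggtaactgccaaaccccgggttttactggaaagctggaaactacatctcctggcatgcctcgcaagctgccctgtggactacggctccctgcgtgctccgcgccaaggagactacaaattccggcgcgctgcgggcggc

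Lbr, chr1:181842402-181842621, minus strand: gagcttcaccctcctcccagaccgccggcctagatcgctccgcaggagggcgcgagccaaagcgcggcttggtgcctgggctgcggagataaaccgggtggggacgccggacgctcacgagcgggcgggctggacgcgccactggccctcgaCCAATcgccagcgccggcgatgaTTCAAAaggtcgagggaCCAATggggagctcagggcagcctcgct

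The motifs were the CCAAT box (CCAAT, in 37.4% of all 32851 promoter windows of this length), the CHR element of cell cycle genes (TTTGAA, 17.9%), an E2F motif (GCGGGAA, 4.6%), a C/EBP motif (TTNNGCAA, 10.8%) and a PU.1 motif (GAGGAAGT, 3.2%). The upstream Tmpo window held 2 CCAAT boxes, and the downstream one held 1 CHR and 2 E2F matches, written TTCCCGC because they lie on the other strand. The Lbr window held 2 CCAAT boxes and 1 CHR match on the other strand (TTCAAA), and the Lmnb2 window held none of these letters. CCAAT boxes were also found at Emd (1), Sun2 (2, with 1 CHR match), Sun1 (2 at one start and 1 at another) and at 1 of the 2 windows of Lmna. No window of the 7 genes held the C/EBP or the PU.1 letters.

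Lmna, which encodes lamins A and C (chr3:88480147-88509956, minus strand), was low throughout and was not called at 48h, where the B-type lamins had fallen. It measured 2.34, 2.09 and 2.30 TPM at 0h, 1.73, 1.92 and 1.84 at 1h, 0.99, 1.31 and 1.95 at 12h, and 1.07, 1.19 and 3.32 at 48h. The 1h and 12h libraries all lay below those of 0h, and the 48h libraries fell on both sides of them. In TPM none of its differences was called (log2 fold changes of -0.28, -0.68 and -0.44 for 1h, 12h and 48h, adjusted p = 0.606, 0.198 and 0.380). After scaling Lmna was lower at 12h by 0.99 (adjusted p = 0.0407), and not called at 1h (-0.90, adjusted p = 0.113) or 48h (-0.05, 95% CI -0.77 to 0.67). The 48h value turned on 1 library: without 48h replicate 3 the TPM difference was -0.93 (adjusted p = 0.0159), and -0.50 (adjusted p = 0.0794) after scaling. In that library the genes outside the 20 most abundant took 94692 TPM in all, against 58343 and 65622 in the other 48h libraries. Scaled Lmna was 4.42 there, against 1.71 and 1.66 in the other 48h libraries, and a link between the high Lmna value and the library's make-up was not tested.

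The proportion of A-type to B-type lamin transcripts turned over between 0h and 48h. A ratio of genes within a library does not depend on the scaling between libraries, apart from the 0.1 TPM added to each value. Lmna made up 7.29% ± 0.819 (SD, n = 3) of the summed TPM of the 3 lamin genes at 0h, 4.47% ± 0.688 after 1h, 14.5% ± 2.51 after 12h and 76.7% ± 10.1 after 48h. Lmnb1 made up 84.1% ± 0.431 at 0h and 14.0% ± 10.2 at 48h, and Lmnb2 stayed between 6.79% and 14.2% in every library. The summed TPM of the 3 lamins was 30.9 ± 2.11, 41.4 ± 5.10, 9.67 ± 2.24 and 2.32 ± 1.27 in the order of the time points. At 48h the shares therefore rest on low levels of all 3 genes.

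The ratio of Lmna to Lmnb1 lay between 0.0762 and 0.0964 at 0h, between 0.0422 and 0.0597 at 1h, between 0.142 and 0.228 at 12h and between 2.77 and 20.8 at 48h. No time points overlapped, the highest value was in 48h replicate 3, and the mean log2 ratio at 48h was 5.82 above that at 0h. An exact permutation test of the log2 ratios over the 4 time points gave p = 6.49e-05 (adjusted over 4 ratios 0.00026), the smallest it can give. The ratio of Lmna to Lbr lay between 0.0777 and 0.0972 at 0h, between 0.0186 and 0.0256 at 12h and between 0.0515 and 0.125 at 48h, with an exact permutation p of 0.00117 over time (adjusted 0.00234). It was lowest at 12h, when Lbr peaked. At 48h it lay on both sides of 0h, with replicates 1 and 2 (0.0533 and 0.0515) below every 0h library and replicate 3 (0.125) above. The ratio of Lmnb2 to Lmnb1 lay between 0.0970 and 0.110 at 0h and between 0.302 and 1.88 at 48h (exact permutation p = 0.00448 over time, adjusted 0.00597), so that by 48h measured Lmnb2 had lost less than Lmnb1. At 48h both genes were near the 0.1 TPM added, Lmnb2 at 0.13 to 0.30 TPM and Lmnb1 at 0.16 to 0.43 TPM. At 12h this ratio lay between 0.0832 and 0.203 and overlapped 0h. Sun2 to Sun1 lay between 1.43 and 2.32 at 0h and between 0.774 and 2.50 at 48h, and did not pass (exact permutation p = 0.161), though without 48h replicate 3 it did (exact permutation p = 0.000455, 48h minus 0h difference -0.94 in place of -0.45). For a single time point against 0h, with 3 libraries each, the smallest p of the exact permutation test is 0.1.

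**Figure D2:**
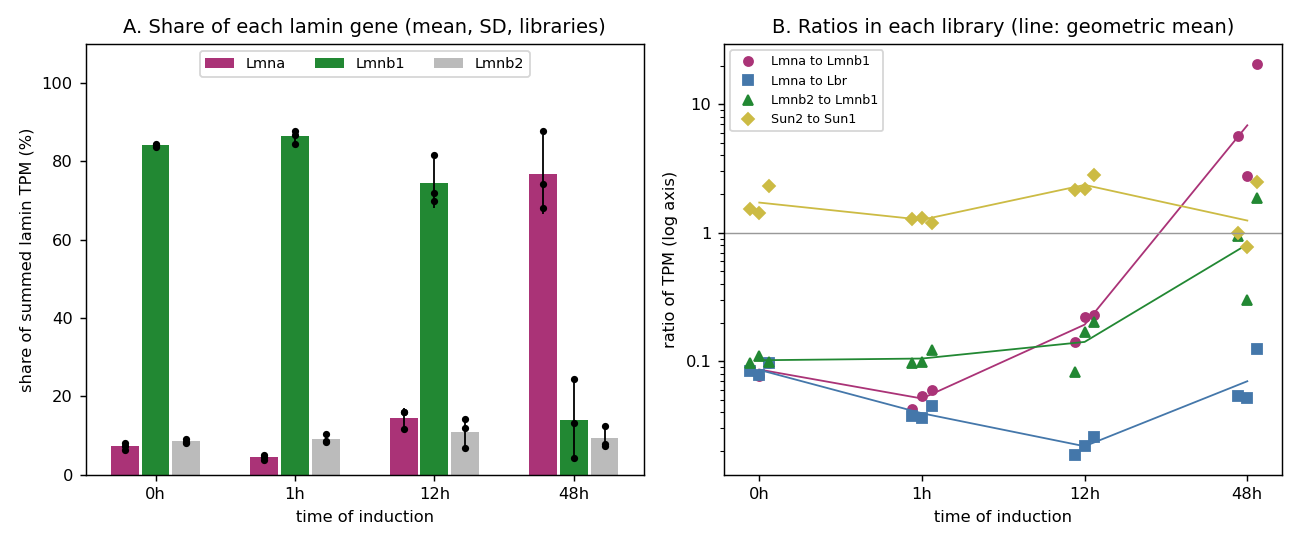
Panel A shows the share of each lamin gene in the summed lamin TPM (bars: mean of 3 libraries, error bars: SD, points: libraries). Panel B shows 4 ratios of TPM in each library on a log axis, with lines through the geometric means. Lmna rises from 7.29% to 76.7% of lamin TPM between 0h and 48h, and its ratio to Lmnb1 crosses 1.

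Lbr, whose product binds B-type lamins and the heterochromatin protein HP1 and also carries a sterol reductase domain (chr1:181815335-181843046, minus strand), was highest midway. It measured 28.0, 26.9 and 23.7 TPM at 0h, 46.2, 53.2 and 40.7 at 1h, 53.3, 60.1 and 76.1 at 12h, and 20.1, 23.1 and 26.6 at 48h. In TPM the 1h and 12h libraries were all above 0h, and the 48h libraries overlapped it. After scaling the 48h libraries (32.0, 32.2 and 35.4) also lay above all 0h libraries (27.2, 29.2 and 28.2). Lbr rose by 1.25 at 12h (SE 0.18, adjusted p = 0.00033), a 2.41-fold higher mean, and by 0.92 after scaling (adjusted p = 8.31e-05). Its increase of 0.83 at 1h (adjusted p = 0.00739) was 0.17 after scaling (adjusted p = 0.374). Between 12h and 48h it fell by 1.43 (adjusted p = 0.000122), with a scaled difference of -0.68 (adjusted p = 0.000876), and at 48h it was not called against 0h in either scale, where the sign also differed (-0.18 in TPM, 0.23 after scaling). With the fall of Lmnb1 and Tmpo, the share of Lbr in the summed TPM of the 8 genes went from 27.4% ± 0.438 at 0h to 32.3% ± 1.72, 59.0% ± 0.307 and 65.3% ± 4.59. On the opposite strand Dnah14 shares 440 of the 4761 exon bases of Lbr. It averaged 1.07 TPM, and the library kit did not keep strand, so reads from these bases cannot be told apart.

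Emd, which encodes the LEM-domain protein emerin (chrX:74254687-74261548, plus strand), moved with the median gene at 1h. It measured 7.43, 6.70 and 5.40 TPM at 0h, 11.2, 10.5 and 8.14 at 1h, 10.0, 10.8 and 10.0 at 12h, and 3.11, 4.17 and 4.48 at 48h. Each induced time point was without overlap with 0h in TPM. The differences of 0.60 at 1h, 0.66 at 12h and -0.72 at 48h were called (adjusted p = 0.0427, 0.0244 and 0.0102). After scaling they were -0.05, 0.33 and -0.32, and none was called (adjusted p = 0.872, 0.107 and 0.0907). The TPM calls at 1h and 12h were lost without 0h replicate 2 or 3, 1h replicate 1 or 2 or 12h replicate 1 or 2 (1h), and without 0h replicate 2 or 3 or 12h replicate 1 or 2 (12h), with adjusted p between 0.0504 and 0.134. From 12h to 48h Emd fell by 1.38 (adjusted p = 0.000264), and after scaling the difference was -0.65 (adjusted p = 0.00722).

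Sun1 and Sun2, the inner membrane side of the LINC complex, were both highest at 1h or 12h. Sun2 (chr15:79724070-79742536, minus strand) measured 4.54, 4.10 and 4.58 TPM at 0h, 7.47, 5.92 and 5.29 at 1h, 8.99, 9.69 and 16.2 at 12h, and 1.45, 2.54 and 5.34 at 48h. Replicate 3 was the highest library at both 12h and 48h. Sun2 rose by 1.33 at 12h (SE 0.38, adjusted p = 0.0222), or 1.00 after scaling (adjusted p = 0.0374). The TPM call was lost without 0h replicate 1, 2 or 3 or without 12h replicate 3 (adjusted p between 0.0501 and 0.0914). At 48h its difference of -0.68 was not called, but was -1.15 without 48h replicate 3 (adjusted p = 0.0106), and after scaling -0.28 and -0.71 (adjusted p = 0.0246 without that library). From 12h to 48h Sun2 fell by 2.01 (adjusted p = 0.00182), and the scaled difference was -1.28 (adjusted p = 0.0153).

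Sun1 (chr5:139200637-139249840, plus strand) measured 2.98, 2.86 and 1.97 TPM at 0h, 5.81, 4.54 and 4.40 at 1h, 4.21, 4.41 and 5.80 at 12h, and 1.45, 3.28 and 2.14 at 48h. The 1h and 12h libraries were all above 0h, and the 48h libraries overlapped it. The differences of 0.90 at 1h and 0.87 at 12h were called in TPM (adjusted p = 0.0387 and 0.0391), but not after scaling (0.26 and 0.54, adjusted p = 0.531 and 0.0955), and both calls were lost without 0h replicate 2 or 3, among other libraries (adjusted p between 0.0503 and 0.138). The 1h call was also lost without any 1h library or 12h replicate 1 or 2, and the 12h call without any 12h library or 1h replicate 2 or 3. At 48h Sun1 was not called in either scale (-0.23 in TPM and 0.17 after scaling).

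Counted over the 8 genes, 3 were higher and 0 lower at 1h in TPM (Lbr, Emd and Sun1), where 24.1% of all genes tested were called higher and 1.41% lower. After scaling 0 were called in either direction, against 5.42% higher and 4.92% lower. At 12h 4 were higher (Lbr, Emd, Sun1, Sun2) and 3 lower (Lmnb1, Tmpo, Lmnb2), against 22.3% and 7.82% of all genes. After scaling 2 were higher (Lbr, Sun2) and 4 lower (with Lmna), against 16% and 14.5%. At 48h 0 were higher and 4 lower (with Emd), against 15.9% and 27.2%, and after scaling 0 and 3, against 24.5% and 22%. Lmnb1, Tmpo and Lmnb2 at 48h were also beyond a log2 fold change of -2 in both scales, as were 10% of all genes in TPM and 7.59% after scaling. From 12h to 48h 0 were higher and 7 lower, all but Lmna, against 4.1% and 31.7%, and after scaling 0 and 6, against 10.5% and 11.9%. Calls were more common among the 9331 genes averaging at least 1 TPM, as every member did. In TPM 2934 of these were called higher and 180 lower at 1h, and 2666 and 1092 at 12h. At 48h the numbers were 1723 and 3885, and for 48h against 12h 436 and 4875. The median log2 fold change of the 8 genes was 0.48, -0.01 and -0.70 at 1h, 12h and 48h in TPM, beside the 0.59, 0.34 and -0.18 of all genes, so that at 1h the median member lay below the median gene. Without a fit, in TPM, the libraries of 7 members lay wholly above 0h at 1h and those of 1 wholly below (40.8% and 3.28% of all genes). At 12h this held for 4 and 4 (30.6% and 12.4%), at 48h for 0 and 4 (19.2% and 30.8%), and for 48h against 12h for 0 and 7 (5.81% and 39.2%). After scaling, only Lbr lay wholly above 0h at 1h and only Lmna wholly below, and the other members overlapped 0h. Scaled Lbr also lay wholly above 0h at 48h. For 48h against 12h scaled Lmna lay wholly above and Sun1 overlapped. The shares of all genes without overlap were not counted after scaling. Without all replicate 3 libraries, an alternative chosen after seeing the data, the members called higher and lower in TPM numbered 1 and 0 at 1h, 2 and 4 at 12h (Lbr and Sun2 against Lmnb1, Tmpo, Lmnb2 and Lmna), 0 and 6 at 48h (with Emd, Lmna and Sun2), and 0 and 6 for 48h against 12h. After scaling they were 0 and 0, 2 and 4, 0 and 4, and 0 and 5. Of the 16415 genes tested, the same fits in TPM called 2459 higher and 174 lower at 1h and 2095 and 1160 at 12h. At 48h they called 2018 and 4138, and for 48h against 12h 549 and 3671. After scaling the numbers over all genes were 536 and 438, 1914 and 1636, 3370 and 3061, and 1289 and 1448. Comparisons against 0h share their 0h libraries.

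**Figure D3:**
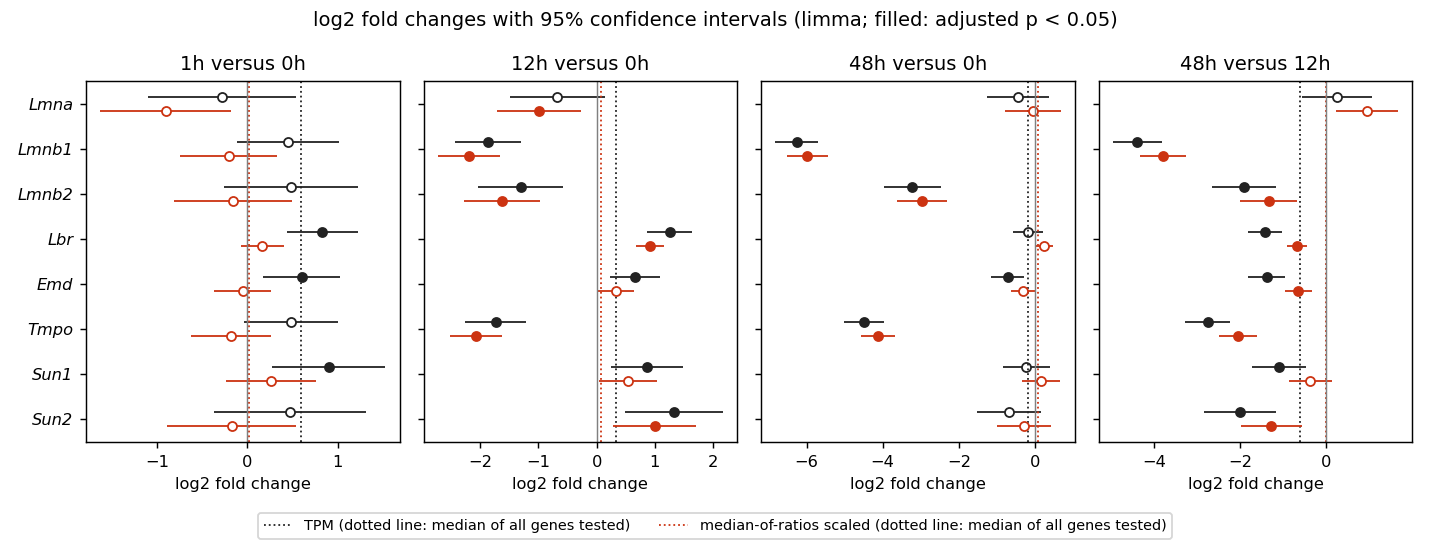
log2 fold changes of the 8 genes in 4 comparisons, in TPM (black) and after median-of-ratios scaling (red), with 95% confidence intervals from limma on log2(value + 0.1). Filled points have an adjusted p under 0.05, and dotted lines are the medians of the 16415 genes tested. Lmnb1, Lmnb2 and Tmpo lie far left of these lines at 12h and 48h in both scales.

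Other genes of the nuclear envelope changed to different degrees at 48h. Among all genes tested, 15.9% were called higher and 27.2% lower at 48h in TPM, and 24.5% and 22% after scaling. Of 9 KASH proteins and further SUN proteins, which complete the LINC complex, 5 were tested, and 0 were higher and 2 lower in TPM. Lrmp, an endoplasmic reticulum and nuclear membrane protein of lymphocytes, fell from 39.9 ± 4.06 TPM in 0h libraries to 5.09 ± 0.833 in 48h libraries (log2 fold change -2.95, adjusted p = 1.36e-07), and Syne3 (nesprin-3) from 2.02 ± 0.317 to 0.960 ± 0.503 TPM (-1.09, adjusted p = 0.0123). After scaling Syne1 (nesprin-1) was higher by 0.44 (adjusted p = 0.0342). Of 7 further LEM-domain genes and BAF genes, 5 were tested and 2 were lower, Banf1 and Ankle1, a LEM-domain endonuclease gene (-3.19, adjusted p = 0.000171). After scaling Ankle2 was higher by 0.64 (adjusted p = 0.00704). Banf1, which encodes BAF, the DNA-binding partner of LEM domains, fell from 17.9 ± 0.558 TPM to 1.97 ± 1.11 (-3.26, adjusted p = 6.04e-06).

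The inner membrane genes went in both directions. Of 8 further inner nuclear membrane and torsin genes, 3 were higher and 2 lower at 48h, in TPM and after scaling. All genes tested also went both ways at 48h, with the shares given above. Tor1aip1, which encodes LAP1, a lamin-binding activator of torsins, rose from 8.31 ± 4.22 TPM in 0h libraries to 33.8 ± 4.0 in 48h libraries, with 16.1 ± 1.86 midway at 12h (log2 fold change 2.13, adjusted p = 0.000263). Tmem201 (Samp1) fell from 2.52 ± 0.0635 to 0.280 ± 0.142 TPM (-2.85, adjusted p = 8.90e-06), and Nrm (nurim) from 4.03 ± 1.70 to 0.640 ± 0.582 TPM (-2.66, adjusted p = 0.00121).

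Of 5 enzymes that process the lamin tail, 3 were lower in TPM and 2 after scaling. Fntb, the beta subunit of the farnesyltransferase, fell from 1.66 ± 0.882 TPM to 0.260 ± 0.0800 (-2.20, adjusted p = 0.000407), Rce1, the CAAX protease, from 3.14 ± 0.525 to 1.38 ± 0.531 TPM (-1.19, adjusted p = 0.00685), and Zmpste24, the protease that matures lamin A, was lower in TPM only (-0.66, adjusted p = 0.0416, and -0.26, adjusted p = 0.361, after scaling). The sterol reductase genes Tm7sf2 and Dhcr7, which act in the pathway Lbr shares, were both lower (-1.73 and -1.67, adjusted p = 0.0195 and 0.000232), while Lbr was not called.

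Chromatin partners also went both ways, with 2 of 6 higher and 4 lower at 48h in both scales. The HP1 genes Cbx5 (from 14.4 ± 1.69 TPM at 0h, log2 fold change -3.58), Cbx3 (-2.47) and Cbx1 (-2.23) all fell, with adjusted p between 5.64e-08 and 8.44e-06. Of 29 nuclear pore genes tested, 0 were higher and 24 lower at 48h, and after scaling 1 and 23, with a list median of -1.88 in TPM and -1.49 after scaling. Nup210, a membrane nucleoporin, fell from 30.3 ± 5.64 to 1.48 ± 0.389 TPM (-4.27, adjusted p = 4.06e-08), Nup43 by 3.29 on the log2 scale and Nup85 by 3.26. The proliferation genes had a list median of -6.09 in TPM.

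**Figure D4:**
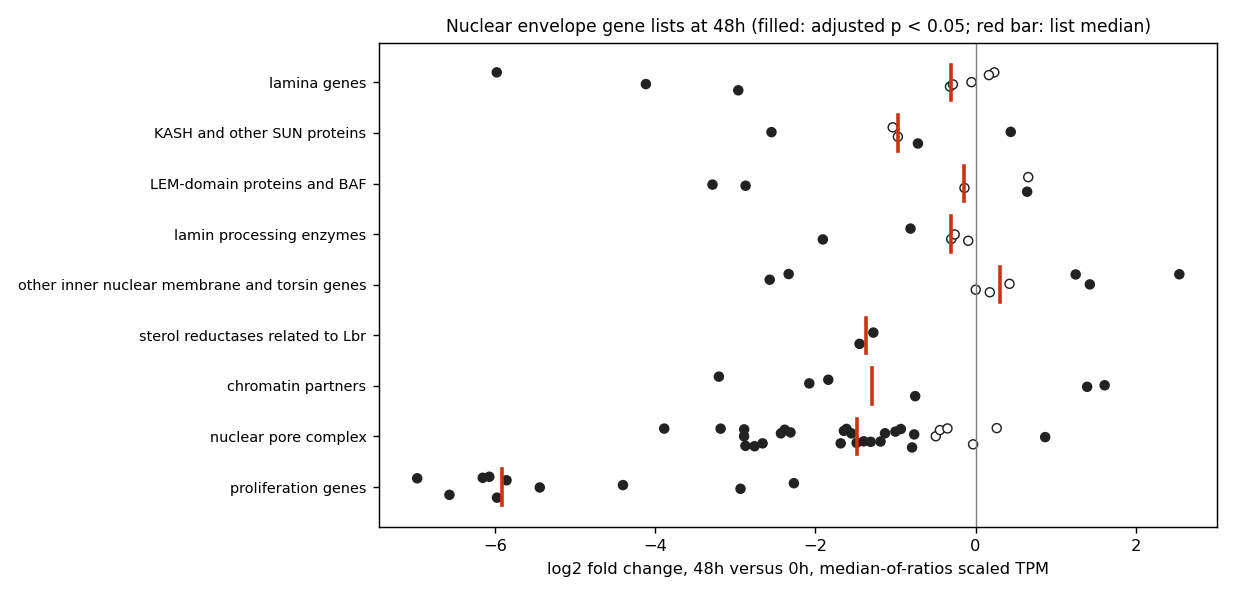
log2 fold change at 48h against 0h after median-of-ratios scaling, for each tested gene of 9 lists. Filled points have an adjusted p under 0.05 in limma, and the red bar is the median of the list. The lamina genes fall into 3 at far left and 5 near 0, the torsin and inner membrane genes lie on both sides, and most pore genes lie left of 0.

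The genes whose pattern was most like each member were named by Pearson's r of log2(TPM + 0.1) over the 12 libraries, among 8367 genes with a mean of at least 1 TPM. These values describe 4 time points that all genes share, with the scaling between libraries in common. Lmnb1 was most like Ybx3, Npm1 and Pkmyt1 (r between 0.995 and 0.997), Tmpo like Ipo5, Ticrr and Ncaph (0.995 to 0.997), and Lmnb2 like Smu1, Hist3h2a and U2af2 (0.991 to 0.997). Lbr was most like Kdm4a, Tspan14 and Tmem39a (0.985 to 0.987), Emd like Oxsr1, Clptm1l and Tm9sf3 (0.974 to 0.979), Sun2 like Taldo1, Tmc8 and Trabd (0.969 to 0.976) and Sun1 like Ptpn11, Mfap1a and Gyg (0.960 to 0.970). Lmna was most like Mafk (0.895), Yipf4 (0.892) and Mrpl14 (0.860). After scaling the named genes changed in part, and for Emd entirely (Lman1, Bhlhe40 and Nfkbid, r between 0.875 and 0.911). The first gene then had an r between 0.991 and 0.996 for Lmnb1 (Cct2), Tmpo (Ipo5) and Lmnb2 (Hist3h2a), 0.972 for Lbr (Tspan14), 0.957 for Sun2 (Taldo1), 0.946 for Lmna (Yipf4) and 0.878 for Sun1 (Ptpn11).

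Promoter Capture Hi-C lists held a promoter fragment for every member. Each list merges 2 replicates, so the numbers of contacts carry no error and no test, and a contact missing from a list may lie just under the calling threshold. The median promoter fragment had 6 contacts at each time point. Tmpo stood high, with 43, 35, 19 and 27 contacts at 0h, 1h, 12h and 48h on the fragment chr10:91159842-91175312, which holds both start windows shown above. Among promoter fragments with a listed contact at the same time point, 96.7% had fewer at 0h and 84.9% at 12h. Of its 59 different contacts 12 were listed at all 4 time points, among them the promoter fragments of Slc25a3 between 39 and 47 kb away and of Apaf1 and Ikbip 82.6 kb away, and 21 of the 43 at 0h were absent at both 12h and 48h.

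The promoter of Lmnb1 (chr18:56704847-56716430) had 7, 2, 5 and 6 contacts at 0h, 1h, 12h and 48h, and none of its 15 different contacts was listed at all 4 times. Of the 7 at 0h, 5 lay between 396 and 644 kb downstream, and none of these 5 was listed later. Their 0h scores were 5.60, 5.72, 6.33, 10.05 and 5.14, in a list whose scores are all at least 5. In all, 1 of the 7 was listed at 48h, beside 55.9% of the 0h interactions of all promoters. At 48h 5 of the 6 lay upstream, between 89.7 and 123 kb away. Of the 6, 4 lay within 10 kb of a fragment contacted at 0h, so that neighbouring fragments were in part contacted at both times. Lmnb2 had 13, 11, 14 and 11 contacts on the fragment of its main start (chr10:80917234-80922951), of which 7 were listed at all 4 times, all between 65.3 and 86.6 kb upstream, among them a fragment with a Gng7 start that had the highest 0h score (15.5). A further fragment (chr10:80894709-80910204), which also holds the start of Timm13, had 20, 25, 20 and 11 contacts.

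Lbr (chr1:181838994-181843190) had 8, 5, 3 and 5 contacts. A fragment at 18.2 kb and one at 299 kb were listed at all 4 times, the promoter fragment of Degs1 at 442 kb at 1h, 12h and 48h, and that of Srp9 at 286 kb at 0h and 48h. Emd (chrX:74253915-74258496) had 9, 11, 6 and 4 contacts, and those of Ubl4a and Slc10a3 (112 and 123 kb) and of Fam3a and Ikbkg (144 kb) were listed at all 4 times. The listed fragment of Lmna (chr3:88507066-88511755) holds 1 of its 7 transcript starts and neither of the 2 windows searched for motifs. It had 4, 7, 2 and 2 contacts, with those at 0h between 103 and 115 kb away. Sun2 (chr15:79732096-79744953) had 0, 4, 3 and 4 contacts, and the Apobec3 promoter fragment at 157 kb was listed at each induced time point. Sun1 (chr5:139198801-139207525) had a single contact at 0h and 1h, at 356 kb, and 0 later. Across all promoters 17.6% of the 273644 different interactions were listed at all 4 times.

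**Figure D5:**
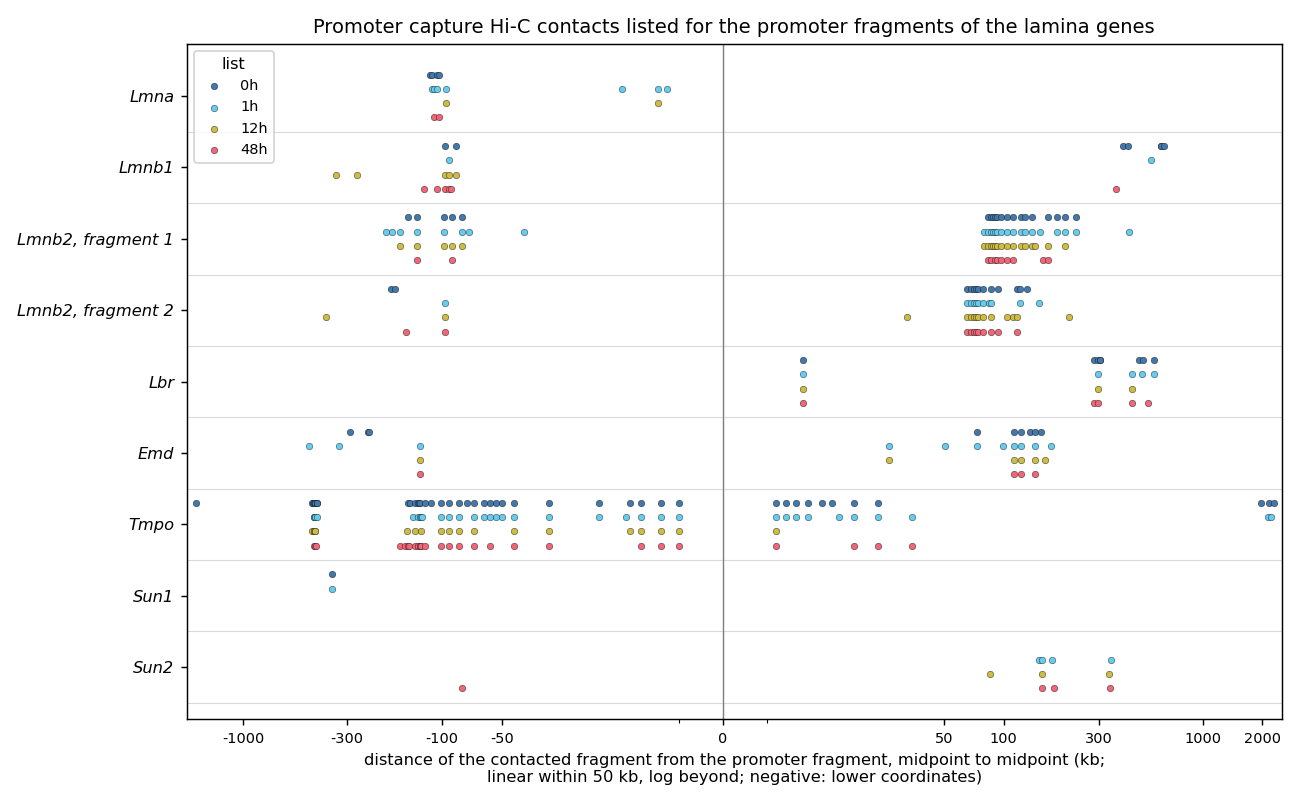
Contacts listed for each promoter fragment of the 8 genes at 0h, 1h, 12h and 48h, by distance in kb between fragment midpoints (linear within 50 kb, log beyond). Each point is 1 contacted fragment in 1 merged list. Tmpo has 43 points at 0h and 19 at 12h, the far right contacts of Lmnb1 at 0h are not repeated at 12h or 48h, and those of Lmnb2 cluster at the same distances at all time points.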

How the data were processed

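Expression came from 12 RNA-seq libraries of C10 cells (3 each at 0h, 1h, 12h and 48h) and contacts from Promoter Capture Hi-C at 4 time points. The authors depleted rRNA, made libraries without strand information, merged technical replicates, trimmed reads with Trim Galore 0.6.2, mapped them with HISAT2 2.1.0 to mm10 and deposited TPM from RSEM for Ensembl genes. Their counts were not used here. Interactions were called by the authors with CHiCAGO on 2 merged replicates. The deposited 0h list holds a score per interaction, all at least 5. The deposited 1h, 12h and 48h lists hold whole numbers whose unit is not given in the sources used here, and only the presence of an interaction was used.

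A limma model of the 4 time points (version 3.58.1, R 4.3.3, with trend) was fitted to log2(TPM + 0.1) of 16415 genes averaging 0.1 TPM or more, with Benjamini-Hochberg adjustment. Size factors for the scaled values were medians of ratios over 11246 genes. Ratios were tested by exact permutation of the 12 libraries over time points, two-sided, in Python 3.11.15. Contacts were counted per fragment holding a GENCODE transcript start. The scripts were tested on simulated data. The 8 genes, the gene lists and the motifs were chosen with earlier results of these data known. All 8 genes are named, and from each list up to 3 genes with the largest called change at 48h and a mean of at least 1 TPM, plus Ankle1, Ankle2, Syne1, Rb1 and Prr14, chosen after their values were seen. Replicates are labelled biological, and p-values measure the spread between these cultures. Alternatives varied the pseudocount, filter, scaling, trend, libraries fitted, replicate block, thresholds and replicates. Fits without 48h replicate 3 on scaled values, and without all replicate 3 libraries, were added after seeing the data.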

Additional observations from a re-analysis of the deposited data

How the results depend on the processing

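Under the other pseudocounts, filters, scalings, thresholds and library sets tried, the number of members lower at 12h stayed at 2 to 4 and that at 48h at 3 to 6, with the exception of the stricter fold limits given here. Of the 3 members higher at 1h, 1 was left with no filter, with no trend or with the replicate block, and 0 after median-of-ratios scaling, with or without the block, after rescaling without the 20 most abundant genes, and beyond a log2 fold change of 1 or 2. Leaving out 1 library gave 1 to 3, with 1 left without 0h replicate 2 or 3, 1h replicate 1 or 2, or 12h replicate 1 or 2. Of the 4 members higher at 12h, 2 were left after median-of-ratios scaling, with or without the block, after rescaling and beyond 1, and 0 beyond 2, and leaving out 1 library gave 1 to 4, with 1 left without 0h replicate 2 or 3 and 2 without any 12h library. Beyond 2 in TPM 0 of the 3 lower members at 12h and 3 of the 7 lower from 12h to 48h were left. With median-of-ratios scaling and the replicate block 1 member, Lmna, was higher at 48h than at 12h (0.94, adjusted p = 0.0262). At 1h the log2 fold change turned negative after median-of-ratios scaling, with or without the block, for Lmnb1 (-0.21), Lmnb2 (-0.16), Emd (-0.052), Tmpo (-0.18) and Sun2 (-0.17), and after rescaling for Lmnb1 (-0.036), Tmpo (-0.0070) and Sun2 (-0.0056). At 48h against 0h it turned positive for Lbr (0.23, and 0.16 after rescaling) and Sun1 (0.17, and 0.096 after rescaling), and with scaling but without 48h replicate 3, an alternative added after seeing the data, it was 0.19 and 0.23. Leaving out 1 library moved Sun1 at 48h between -0.51 and 0.048 (without 48h replicate 1), Lmna from 12h to 48h between -0.25 (without 48h replicate 3) and 0.52, and the 48h minus 0h difference in the log2 ratio of Sun2 to Sun1 between -0.94 (without 48h replicate 3, exact permutation p = 0.000455) and -0.12. The cause of these changes was not tested. Without all replicate 3 libraries, also added after seeing the data, 1 member was higher at 1h and 2 at 12h in TPM and 0 and 2 after scaling, Lmna from 12h to 48h was -0.013 in TPM, and after scaling 1h values were -0.16 (Lmnb1), -0.24 (Lmnb2), -0.045 (Emd), -0.19 (Tmpo) and -0.039 (Sun2), and 48h values against 0h 0.19 (Lbr) and 0.12 (Sun1). The labels do not say what a replicate number shares, and the numbers did not meet the rule for pairing, which asks for correlated deviations above 0.1 in every pair: 7 of 18 same-number pairs did (range -0.0123 to 0.257, against -0.181 to 0.11 for other numbers). Of these 7, 5 were among the 6 replicate 3 pairs, and 0 of the 6 replicate 2 pairs passed. With the replicate block in TPM 3 members were higher at 12h and 1 at 1h, since Sun1 (adjusted p = 0.0534 at 1h and 0.0548 at 12h) and, at 1h, Emd (0.0569) were no longer called. The block changed no other call of a member in TPM. The depth of the libraries is not recorded in TPM, so it is unknown how much counting error adds at the lowest levels.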
